A study of Mus musculus with 30 samples.

Results

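The Toll-like receptors of monocytes and macrophages were compared between the blood and a mouse glioma. The set held 10 genes, namely *Tlr1*, *Tlr2*, *Tlr3*, *Tlr4*, *Tlr6*, *Tlr7*, *Tlr8*, *Tlr9*, *Tlr13* and the co-receptor gene *Cd14*. They were taken by name from the 45317 genes of the count tables, and all 10 passed the low-count filter that left 11566 genes for testing. RNA was sequenced from 8 sorted populations of 4 tumor-bearing mice, numbered 22, 23, 24 and 26. The paper used male and female mice, and the sex of each numbered mouse was not used here. The mice were heterozygous for an RFP reporter in the *Ccr2* locus (C57BL6.CCR2RFP/WT), were 12 to 18 weeks old, and carried GL261.BpalmGFP cells injected into the brain. GL261 is 1 mouse glioma line, here with a membrane-anchored GFP that neighbouring cells can take up. Blood gave Ly6Chigh and Ly6Clow monocytes, sorted on CD45, CD115, low CD11c and Ly6C, from mice 22, 23 and 24. The brain gave glioma monocytes from mice 22, 24 and 26, and CCR2high and CCR2low macrophages from all 4 mice, each as GFPneg and GFPpos cells. Brain cells were taken in the CD11bhigh CD45high gate, set to leave out microglia, and then split on F4/80, Ly6C, CCR2-RFP and GFP. No population came from a tumor-free mouse, and the labels give brain as the tissue of the blood samples too.

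Toll-like receptors recognise molecules of microbes and of damaged cells. *Tlr2*, which pairs with the products of *Tlr1* or *Tlr6*, reads lipoproteins at the cell surface, and *Tlr4* reads lipopolysaccharide there with the help of CD14. The endosomal receptors read nucleic acids, namely double-stranded RNA by TLR3, single-stranded RNA by TLR7 and TLR8, unmethylated CpG DNA by TLR9 and bacterial ribosomal RNA by TLR13.

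The promoters of *Tlr2*, *Tlr3* and *Tlr13* are shown because these receptors carry some of the differences described further on: against Ly6Chigh blood monocytes *Tlr3* was called higher in all 3 GFPneg brain populations, *Tlr2* higher in glioma monocytes and *Tlr13* lower in CCR2low macrophages. *Cd14* and *Tlr7*, which were also called, and *Tlr4* had no window in the sequences used. The windows are RefSeq sequences on GRCm38.p6, read 5′ to 3′ in the direction of the gene, from 250 bases before the annotated start to 30 after it. Capitals mark matches, on either strand, to NF-kB sites (the name stands for the usual 10-base consensus), to the core of the interferon-stimulated response element GAAANNGAA, to AP-1 (TGANTCA) and to the PU.1 core GAGGAA.
Tlr2, chr3:83841579-83841858, minus strand: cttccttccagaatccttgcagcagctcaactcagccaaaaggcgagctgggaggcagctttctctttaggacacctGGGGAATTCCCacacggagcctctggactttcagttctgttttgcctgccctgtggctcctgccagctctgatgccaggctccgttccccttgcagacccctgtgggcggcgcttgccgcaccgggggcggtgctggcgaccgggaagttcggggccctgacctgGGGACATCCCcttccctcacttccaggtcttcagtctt
Tlr3, chr8:45410351-45410630, minus strand: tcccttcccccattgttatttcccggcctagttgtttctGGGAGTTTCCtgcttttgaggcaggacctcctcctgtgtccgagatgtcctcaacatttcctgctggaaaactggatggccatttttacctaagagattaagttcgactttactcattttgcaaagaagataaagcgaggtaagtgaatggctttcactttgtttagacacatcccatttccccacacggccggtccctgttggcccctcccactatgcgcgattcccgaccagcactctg
Tlr13, chrX:106143025-106143304, plus strand: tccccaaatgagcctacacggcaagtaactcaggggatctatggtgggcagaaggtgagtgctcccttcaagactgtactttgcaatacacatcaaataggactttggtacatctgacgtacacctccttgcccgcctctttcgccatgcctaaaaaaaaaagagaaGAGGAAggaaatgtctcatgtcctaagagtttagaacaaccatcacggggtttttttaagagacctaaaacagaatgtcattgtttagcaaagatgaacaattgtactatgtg
*Tlr2* held NF-kB matches at -173 to -164, at -172 to -163 and at -8 to 2 counted from the start, of which the first pair overlap and the last 2 places also match on the other strand. *Tlr3* held 1 NF-kB match at -211 to -202, and *Tlr13* held 1 PU.1 match at -83 to -78. Of all 32851 RefSeq windows of 300 bases, 8.46% held the NF-kB match, 8.56% the interferon element core, 7.81% AP-1 and 28.3% the PU.1 core. Among the 12 windows found for 10 genes, 7 of the set and the family members *Tlr5*, *Tlr11* and *Tlr12*, these motifs were found in 2, 3, 1 and 5 windows. A match is a run of letters and not a measured binding site.

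The depth ranged from 1553616 to 5689644 counts on genes per replicate in 28 replicates, 6 of blood and 22 of brain. The second library of Ly6Clow monocytes of mouse 23 was used in place of the first, which had too few detected genes, and it stood apart with 13.3% spike-in counts. In it *Tlr1*, *Tlr3*, *Tlr4* and *Tlr9* had 0 counts. For GFPpos glioma monocytes of mouse 22 a pair of libraries was summed. The second libraries of these samples were deposited apart from all others. The Ly6Clow replicate of mouse 23 was thus the only one drawn wholly from that deposit. Levels are normalised counts (CPM, counts scaled to a common library size), and where genes are compared with each other they are given per kb of exon. In bulk RNA fewer expressing cells and less RNA per cell cannot be told apart. *Ccr2*, whose RFP reporter parted the macrophages but was not used to sort the blood cells, followed the labels. Its mean was 2060 CPM in Ly6Chigh and 562 CPM in Ly6Clow monocytes, and 243 CPM in CCR2high and 72.2 CPM in CCR2low GFPneg macrophages. *Csf1r*, the receptor gene that marks monocytes and macrophages, lay between 1945 and 4456 CPM in every replicate. The 7 microglia marker genes summed to 58.6 to 285 CPM in blood and to 1679.5 to 8808.5 CPM in brain, where all 7 were detected and *Tmem119* reached 290 to 2198 CPM. In blood *Sall1* and *Siglech* were at 0, and *Tmem119* was at 0 in Ly6Clow and at most 7.03 CPM in Ly6Chigh monocytes. The 9 genes induced by tissue dissociation summed to 564 to 1363 CPM in blood and 3325 to 14432 CPM in brain. Neutrophil markers (7 genes) summed to 144 to 1024 CPM in blood and 6.56 to 1797 CPM in brain, B cell markers (6 genes) to 60.0 to 449 and 38.9 to 942 CPM, and T and NK cell markers (7 genes) to 24.02 to 1252 and 240 to 1567 CPM. Markers of conventional dendritic cells (6 genes) summed to 99.6 to 1774 CPM in blood and 26.2 to 275 CPM in brain, and those of plasmacytoid dendritic cells (6 genes, of which *Siglech* is also a microglia marker) to 128 to 298 and 524 to 1327 CPM.

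To ask which receptors a circulating monocyte carries, levels were ordered within Ly6Chigh monocytes. *Tlr13* stood first with 115 ± 21.1 CPM per kb (mean ± SD, n = 3), followed by *Tlr2* with 67.2 ± 7.32 CPM per kb. *Cd14* (50.1 ± 19.5 CPM per kb) and *Tlr7* (44.3 ± 14.8 CPM per kb) came next and did not differ beyond their spread. *Tlr8* had 26.2 ± 4.26, *Tlr4* 16.8 ± 5.33, *Tlr6* 12.4 ± 2.91 and *Tlr1* 6.41 ± 1.76 CPM per kb. *Tlr3* (0.83 ± 0.573 CPM per kb) and *Tlr9* (0.668 ± 0.343 CPM per kb) were at the bottom. In GFPneg glioma monocytes the order began with *Cd14* at 963 ± 568 CPM per kb and *Tlr2* at 224 ± 71.0 CPM per kb, ahead of *Tlr13* at 71.2 ± 51.1 CPM per kb. *Tlr9* remained the lowest there, with 1.61 ± 0.432 CPM per kb.

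**Figure D1:**
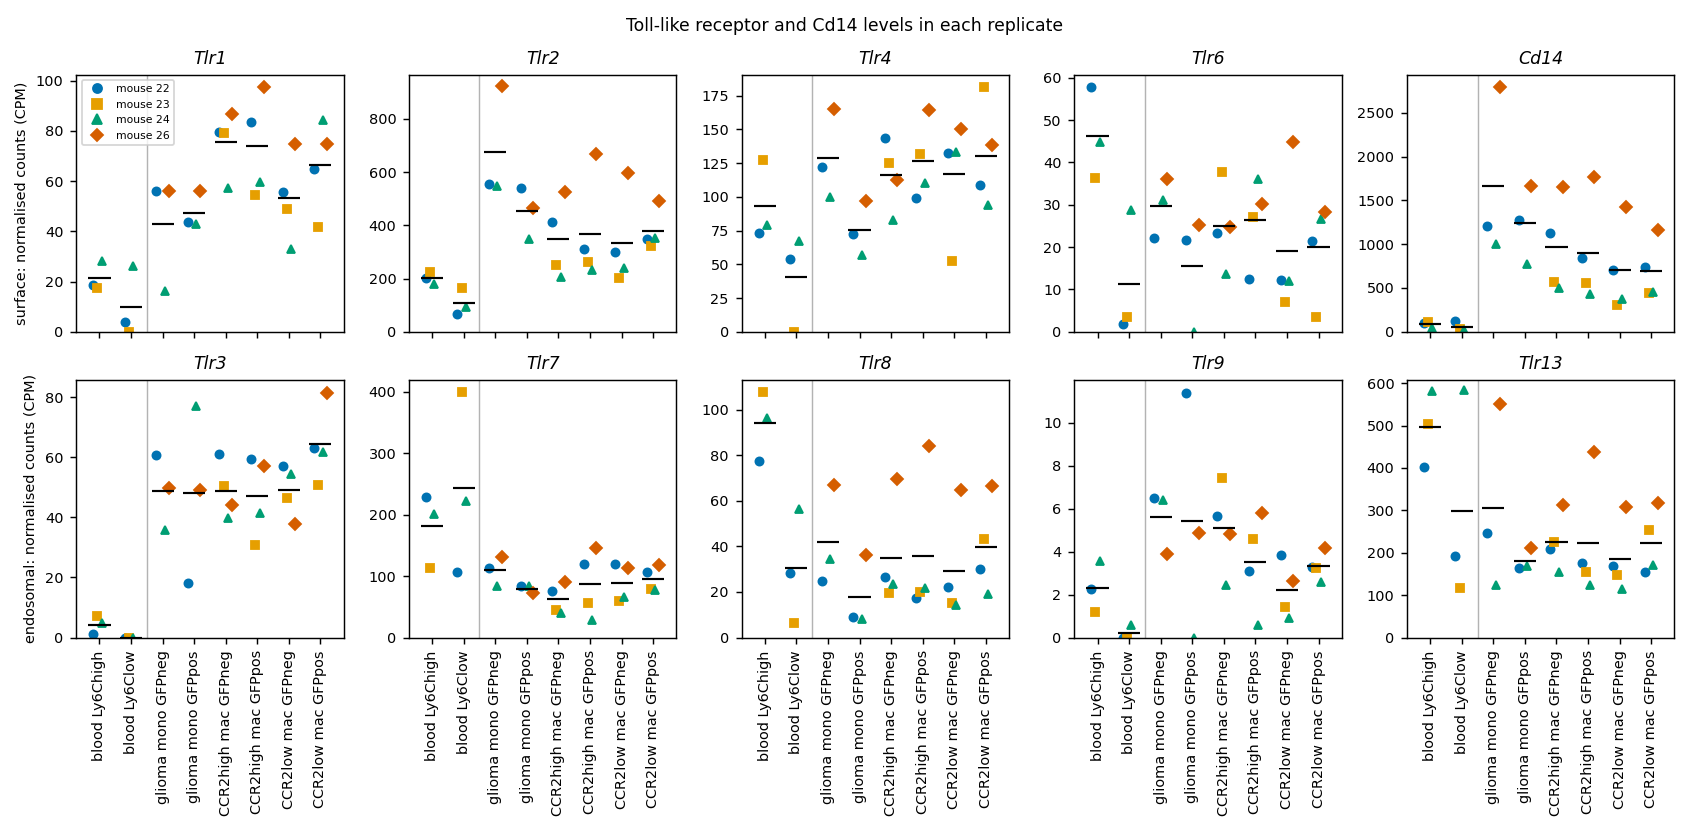
Normalised counts (CPM, linear axes from 0) of the 10 genes in every replicate of the 8 populations, with 1 point per mouse and a bar at the mean; surface genes are in the upper row and endosomal ones in the lower, and the grey line parts blood from brain. *Cd14* lies at 308 CPM or more in all brain replicates and at 119 CPM or less in blood, while *Tlr7* reaches its highest value, 399.8 CPM, in blood.

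The surface and endosomal receptors of the set changed places in their sums between blood and brain. The summed level of *Tlr1*, *Tlr2*, *Tlr4* and *Tlr6* per kb, divided by that of *Tlr3*, *Tlr7*, *Tlr8*, *Tlr9* and *Tlr13*, was below 1 in all 6 blood replicates, with log2 ratios from -1.81 to -0.65. It was above 1 in all 22 brain replicates, with log2 ratios from 0.58 to 1.66. The mean log2 ratio was -0.86 ± 0.27 (SD, n = 3) in Ly6Chigh monocytes and -1.42 ± 0.34 (n = 3) in Ly6Clow monocytes. It was 1.24 ± 0.37 (n = 3) in GFPneg and 1.22 ± 0.40 (n = 3) in GFPpos glioma monocytes. In CCR2high macrophages it was 0.89 ± 0.16 (GFPneg) and 0.98 ± 0.27 (GFPpos), and in CCR2low macrophages 0.84 ± 0.23 (GFPneg) and 0.83 ± 0.24 (GFPpos), with n = 4 each. The ratio was described and not tested, since it is a score over chosen genes.

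**Figure D2:**
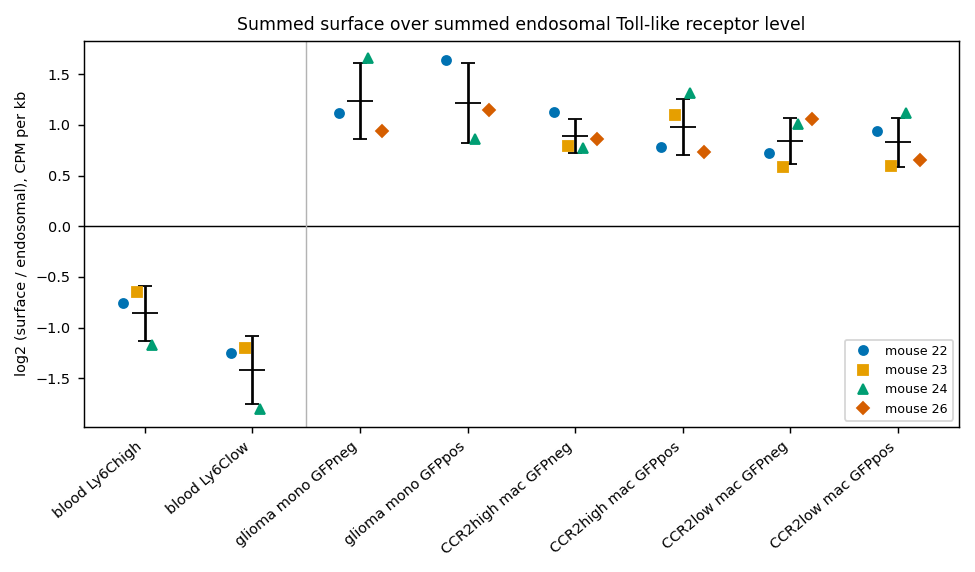
Log2 ratio of summed surface to summed endosomal receptor level (CPM per kb) in each replicate, with 1 point per mouse, and the mean and SD per population in black. Surface is *Tlr1*, *Tlr2*, *Tlr4* and *Tlr6*, and endosomal is *Tlr3*, *Tlr7*, *Tlr8*, *Tlr9* and *Tlr13*. All 6 blood replicates lie below 0 and all 22 brain replicates above it.

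Both sums differed in their means between Ly6Chigh monocytes and the GFPneg brain populations, but their ranges met. Surface sums were 94.7 to 113 CPM per kb in Ly6Chigh and 33.0 to 58.7 CPM per kb in Ly6Clow monocytes, and 93.2 to 363 CPM per kb in brain replicates. Endosomal sums were 172 to 213 CPM per kb in Ly6Chigh and 78.6 to 206 CPM per kb in Ly6Clow monocytes, and 49.8 to 189 CPM per kb in brain replicates, so that those of Ly6Clow monocytes overlapped the brain ones widely. From Ly6Chigh monocytes to GFPneg glioma monocytes the surface sum went from 103 ± 9.005 to 268 ± 81.9 CPM per kb, and the endosomal sum from 187 ± 22.6 to 121 ± 62.3 CPM per kb. In GFPneg CCR2low macrophages the surface sum was 153 ± 74.1 and the endosomal sum 82.9 ± 30.9 CPM per kb. *Tlr2* made up most of the surface sum in each population, from 65.3% ± 1.69 in Ly6Chigh monocytes to 83.5% ± 2.597 in GFPneg glioma monocytes. The share of *Tlr1* was 14.3% ± 2.84 in GFPneg CCR2high macrophages and 6.35% ± 2.25 in Ly6Chigh monocytes. In the endosomal sum *Tlr13* held 61.3% ± 6.31 in Ly6Chigh monocytes and 50.8% ± 5.99 in GFPneg CCR2low macrophages. *Tlr3* held 0.441% ± 0.320 in Ly6Chigh monocytes and 12.8% ± 5.18 in GFPneg CCR2low macrophages.

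**Figure D3:**
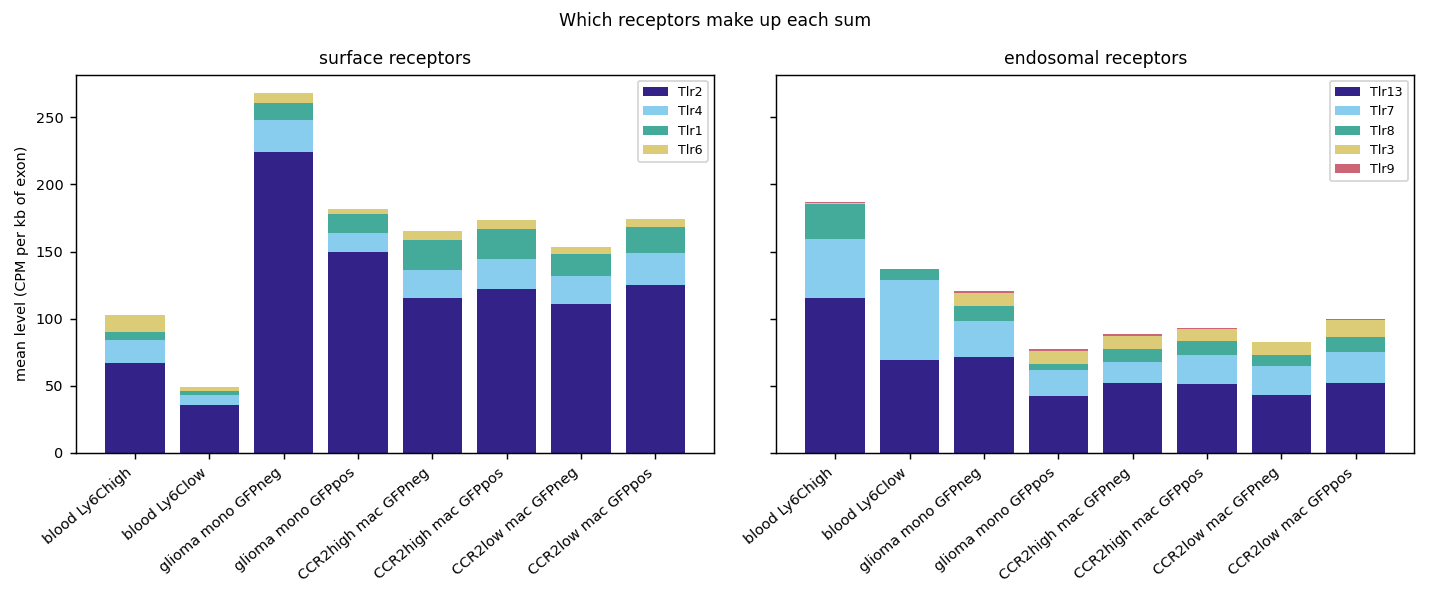
Mean level (CPM per kb of exon, linear axis from 0) of each receptor, stacked by class, in the 8 populations; bars are means over 3 or 4 mice. *Tlr2* makes up most of the surface sum and *Tlr13* and *Tlr7* together most of the endosomal sum in every population.

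The first comparison asked how the receptors differ between Ly6Chigh and Ly6Clow blood monocytes. Of the 10 genes 1, *Tlr3*, was called at an adjusted p under 0.05 by edgeR's quasi-likelihood test, higher in Ly6Chigh monocytes, where 5.61% of all tested genes were called in either direction. At an unadjusted p under 0.05 by the same test there were 5 of the 10, and 2527 of the 11566 tested genes. Of the 10, 9 had a positive log2 fold change, with a median of 1.13 against 0.02 over all genes. Among these, *Tlr1*, *Tlr3*, *Tlr4* and *Tlr9* were at 0 counts in the Ly6Clow library of mouse 23 that stood apart. *Tlr3* had 1.12, 7.03 and 4.81 CPM (2, 12 and 23 counts) in Ly6Chigh monocytes of mice 22, 23 and 24, and 0 counts in all 3 Ly6Clow replicates. By counting error alone a count of 0 still allows up to 1.42 CPM in the shallowest of these. This limit does not cover differences between libraries: in GFPpos glioma monocytes of mouse 22, the first library had 0 *Tlr3* counts and the second 22.2 CPM. Set against 3 counts per library in Ly6Clow monocytes, a bound for counting error only, the *Tlr3* mean was 3.75-fold higher in Ly6Chigh monocytes (edgeR adjusted p = 0.000318).

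Surface receptors pointed the same way in the blood without passing the test. *Tlr2* had 202, 225 and 181 CPM in Ly6Chigh monocytes and 65.1, 164 and 93.5 CPM in Ly6Clow monocytes, in the order of mice 22, 23 and 24. The groups did not overlap, but the log2 difference of 0.91 ± 0.43 (SE) had an edgeR adjusted p of 0.206. *Tlr6* had 57.9, 36.3 and 44.7 CPM against 1.89, 3.47 and 28.7 CPM, again without overlap (log2 difference 2.00 ± 0.94, edgeR adjusted p = 0.213). *Tlr4* had 73.0, 127 and 79.2 CPM against 54.3, 0 and 67.5 CPM (log2 difference 1.19 ± 0.69, edgeR adjusted p = 0.318). *Tlr1* had 18.5, 17.6 and 28.2 CPM against 3.77, 0 and 26.3 CPM, with overlap (log2 difference 1.07 ± 0.71, edgeR adjusted p = 0.399). Both values of 0 were in the Ly6Clow library of mouse 23 that stood apart. *Tlr8* had 77.5, 108 and 96.4 CPM in Ly6Chigh and 28.3, 6.55 and 56.2 CPM in Ly6Clow monocytes, without overlap. Its log2 difference of 1.62 ± 0.77 was not called (edgeR adjusted p = 0.213), while with the mouse as a replicate block the adjusted p was 0.0368. *Tlr7* went against the others, with 229, 113 and 200 CPM in Ly6Chigh and 107, 399.8 and 222 CPM in Ly6Clow monocytes. The groups overlapped, the highest value being in the Ly6Clow library that stood apart (log2 difference -0.42 ± 0.47, edgeR adjusted p = 0.648). Without Ly6Clow replicate 24, 6 of the 10 genes were called, and 2444 genes in all, in place of 1 and 649. T and NK cell markers summed to 835 to 1252 CPM in Ly6Clow and 24.02 to 153 CPM in Ly6Chigh monocytes. Other lists were apart in the same direction without overlap: conventional dendritic cell markers at 357 to 1774 against 99.6 to 209 CPM, highest in the Ly6Clow library of mouse 23 that also held the highest *Tlr7*, neutrophil markers at 601 to 1024 against 144 to 577 CPM, and B cell markers at 246 to 449 against 60.0 to 115 CPM. The 8 monocyte and macrophage markers, which include *Ly6c2* and *Ccr2*, went the other way, at 3239.5 to 6877 CPM in Ly6Clow and 7993 to 9461 CPM in Ly6Chigh monocytes. The 6 markers of Ly6Clow blood monocytes summed to 2597 to 4042 CPM in Ly6Clow and 748 to 2084 CPM in Ly6Chigh monocytes. The part of these lists in the blood differences was not tested.

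The next comparisons set the GFPneg brain populations against Ly6Chigh blood monocytes, the cells that enter tissue from the blood. They share the 3 Ly6Chigh replicates. In glioma monocytes 3 of the 10 genes were called higher, namely *Tlr2*, *Cd14* and *Tlr3*, where 11.1% of all tested genes were called higher, and 0 were called lower, where 2.68% of all genes were. In CCR2high macrophages *Cd14* and *Tlr3* were called higher, 2 of 10 against 12.7% of all genes, and *Tlr7* lower, 1 of 10 against 5.14%. In CCR2low macrophages *Cd14* and *Tlr3* were called higher, 2 of 10 against 14.1% of all genes, and *Tlr13* lower, 1 of 10 against 6.09%. The 4 surface receptors had median log2 fold changes of 0.73, 0.55 and 0.53 in the 3 comparisons and the 5 endosomal ones of -0.69, -1.14 and -1.02, where the medians of all genes were 0.12, 0.15 and 0.17. With spike-in scaling the surface medians were 0.70, 0.66 and 0.60, the endosomal ones -0.63, -1.21 and -1.15 and those of all genes -0.04, 0.15 and 0.01.

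**Figure D4:**
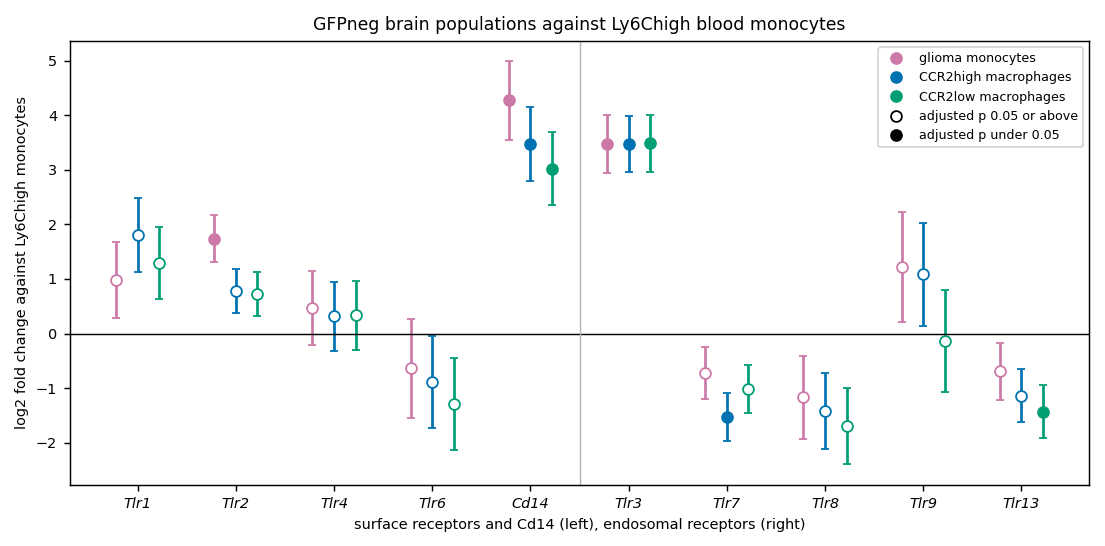
Log2 fold changes ± SE of the 10 genes in GFPneg glioma monocytes, CCR2high and CCR2low macrophages against Ly6Chigh blood monocytes; filled points had an edgeR adjusted p under 0.05. *Cd14* and *Tlr3* are filled in all 3 comparisons, *Tlr2*, *Tlr7* and *Tlr13* in 1 each.

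*Tlr2*, on chromosome 3 (GRCm38, 83836272 to 83841767, minus strand), had 556, 549 and 923 CPM in GFPneg glioma monocytes of mice 22, 24 and 26, against 202, 225 and 181 CPM in Ly6Chigh monocytes of mice 22, 23 and 24. The groups did not overlap, and mouse 26, which gave no blood sample, was the highest. *Tlr2* was 3.34-fold higher (log2 1.74 ± 0.43 SE, edgeR adjusted p = 0.0065). In macrophages its levels were lower than this: 411, 251, 204 and 523 CPM in CCR2high and 300.04, 202, 238 and 598 CPM in CCR2low GFPneg cells of mice 22, 23, 24 and 26. Against Ly6Chigh monocytes these gave log2 differences of 0.78 ± 0.40 and 0.72 ± 0.40, which were not called (edgeR adjusted p = 0.198 and 0.226). Scaled on the spike-ins, the glioma monocyte value was 1.798 on the log2 scale and was not called (edgeR adjusted p = 0.511).

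*Cd14*, the co-receptor that passes lipopolysaccharide to the TLR4 complex, had the highest brain levels of the set. It had 1206, 1000.1 and 2798 CPM in GFPneg glioma monocytes of mice 22, 24 and 26, and 99.996, 112 and 48.5 CPM in Ly6Chigh monocytes of mice 22, 23 and 24. It was 19.3-fold higher (log2 4.27 ± 0.72, edgeR adjusted p = 0.000133), with the lowest glioma replicate far above the highest blood one. GFPneg CCR2high macrophages had 1127, 569, 501 and 1651 CPM and CCR2low ones 702, 308, 374 and 1425 CPM in mice 22, 23, 24 and 26. Each of these replicates lay above all blood replicates, with *Cd14* 11.1-fold higher in CCR2high (log2 3.48 ± 0.68, edgeR adjusted p = 0.000546) and 8.13-fold higher in CCR2low macrophages (log2 3.02 ± 0.67, edgeR adjusted p = 0.0016). With spike-in scaling the CCR2low call was lost (log2 3.40, edgeR adjusted p = 0.0755). The dissociation genes given above did not overlap between blood and brain either, and their part in the *Cd14* and *Tlr2* values was not tested.

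*Tlr4* and the partners of *Tlr2* did not pass the test in the 3 GFPneg brain populations against Ly6Chigh monocytes. *Tlr4* had 122, 100.1 and 165 CPM in GFPneg glioma monocytes and 73.0, 127 and 79.2 CPM in Ly6Chigh monocytes, so the groups overlapped (log2 difference 0.47 ± 0.68, 95% interval -0.86 to 1.802, edgeR adjusted p = 0.761). *Tlr1* had 79.5, 79.2, 57.3 and 86.7 CPM in GFPneg CCR2high macrophages of mice 22, 23, 24 and 26, and 18.5, 17.6 and 28.2 CPM in Ly6Chigh monocytes. These groups did not overlap, yet the log2 difference of 1.81 ± 0.68 had an edgeR adjusted p of 0.0651, and it was called by DESeq2 (adjusted p = 0.0151) and when the compared populations alone were fitted (edgeR adjusted p = 0.000917). *Tlr6*, the neighbour of *Tlr1* on chromosome 5, had log2 differences of -0.64 ± 0.91, -0.89 ± 0.84 and -1.29 ± 0.85 in the 3 comparisons, with edgeR adjusted p of 0.759, 0.536 and 0.325.

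Among the endosomal receptors of the set *Tlr3*, which signals through TRIF rather than MyD88, was the one called higher. It had 60.7, 35.9 and 49.7 CPM in GFPneg glioma monocytes, 61.2, 50.5, 39.7 and 44.1 CPM in CCR2high and 57.3, 46.5, 54.6 and 38.0 CPM in CCR2low GFPneg macrophages, each in the order of mouse numbers. Ly6Chigh monocytes had 1.12, 7.03 and 4.81 CPM, so every brain replicate lay above every blood replicate. The folds were 11.1, 11.1 and 11.2 (log2 3.47 ± 0.53, 3.48 ± 0.52 and 3.48 ± 0.52, edgeR adjusted p = 5.2e-05, 2.85e-05 and 2.51e-05). With spike-in scaling the log2 values were 3.45 and 3.41 in glioma monocytes and CCR2low macrophages, and these 2 were not called (edgeR adjusted p = 0.0721 and 0.0522). GENCODE vM21 places *Tlr3* on chromosome 8 (45395665 to 45411080, minus strand) and an antisense gene over 569 of its exonic bases. The strand setting of the counting is not given in the sources used here, so reads of both could not be told apart there.

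*Tlr3* kept a near equal mean across the GFPneg brain gates, 48.8, 48.9 and 49.1 CPM in glioma monocytes, CCR2high and CCR2low macrophages. The summed microglia markers had medians of 1752, 2541 and 4219 CPM in the same gates. The log2 difference of *Tlr3* between CCR2low macrophages and glioma monocytes was 0.01 ± 0.43 (95% interval -0.84 to 0.86). The part of the marker genes in the blood to brain difference was not tested.

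*Tlr7*, *Tlr8* and *Tlr13*, which read RNA through MyD88, had lower means in all brain populations than in Ly6Chigh monocytes. *Tlr7* had 76.3, 44.5, 40.2 and 90.8 CPM in GFPneg CCR2high macrophages of mice 22, 23, 24 and 26, against 229, 113 and 200 CPM in Ly6Chigh monocytes. The groups did not overlap, and *Tlr7* was 2.87-fold lower (log2 -1.52 ± 0.44, edgeR adjusted p = 0.016). The call was lost with spike-in scaling (log2 -1.62, adjusted p = 0.489) and without Ly6Chigh replicate 22 or 24 (log2 -1.40 and -1.44, adjusted p = 0.0566 and 0.062, both by edgeR). In CCR2low macrophages, with 119, 59.0, 66.1 and 113 CPM, the log2 difference of -1.02 ± 0.44 was not called (edgeR adjusted p = 0.108; 0.0292 with the mouse as a replicate block).

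*Tlr13* had 169, 147, 114 and 307 CPM in GFPneg CCR2low macrophages and 401, 504 and 582 CPM in Ly6Chigh monocytes, again without overlap. It was 2.69-fold lower (log2 -1.43 ± 0.49, edgeR adjusted p = 0.0398). This call was near the threshold and was kept in 7 of 15 alternatives. It was lost with DESeq2 size factors (adjusted p = 0.0537), with no low-count filter (0.106), with spike-in scaling (0.61), without Ly6Chigh replicate 23 or 24 (0.0772 and 0.132) and without CCR2low GFPneg replicate 22, 23 or 24 (0.0816, 0.103 and 0.108), all by edgeR. In CCR2high macrophages the log2 difference was -1.14 ± 0.49 (edgeR adjusted p = 0.113; 0.00987 with the replicate block), and in glioma monocytes, where replicates ran from 124 to 550 CPM, -0.69 ± 0.53 (edgeR adjusted p = 0.486).

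*Tlr8* had 22.02, 15.3, 14.3 and 64.9 CPM in GFPneg CCR2low macrophages of mice 22, 23, 24 and 26 and 77.5, 108 and 96.4 CPM in Ly6Chigh monocytes. The groups did not overlap, but mouse 26 lay close to the blood values and the log2 difference of -1.69 ± 0.70 was not called (edgeR adjusted p = 0.0926), while without CCR2low GFPneg replicate 26 it was (log2 -2.48, edgeR adjusted p = 0.021). With the mouse as a replicate block *Tlr8* was called lower in all 3 brain populations, by edgeR at adjusted p = 0.0115 in glioma monocytes (log2 -1.88), 0.00181 in CCR2high (log2 -2.06) and 0.000447 in CCR2low macrophages (log2 -2.39). The block raised the count of called genes of the set from 3 to 5 in both macrophage comparisons, and that of all genes from 2060 to 2451 in CCR2high and from 2340 to 2671 in CCR2low macrophages. *Tlr9* was low throughout, with 0 to 3.55 CPM in blood and 0 to 11.4 CPM in brain. It had 3 or fewer counts in 4 of 6 blood and 3 of 22 brain replicates, and its log2 difference of 1.22 ± 1.004 in glioma monocytes against Ly6Chigh monocytes was not called (edgeR adjusted p = 0.53).

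Between the brain populations the question was whether receptors differ between the glioma monocyte and macrophage gates. Of the 10 genes 0 were called by edgeR in CCR2high macrophages against glioma monocytes, where 0.182% of all genes were called. The unadjusted p was under 0.05 for 1 of the 10, and for 622 of the 11566 tested genes. In CCR2low macrophages against glioma monocytes 0 of the 10 were called against 1.21% of all genes, and DESeq2 called 0 in both. At an unadjusted p under 0.05 by edgeR there were 2 of the 10 in CCR2low macrophages, and 978 of the 11566 tested genes. *Tlr2* and *Cd14* were the 2 genes, and both had higher values in glioma monocytes in all 3 mice that gave both populations, as had *Tlr8*, *Tlr9* and *Tlr13*. *Tlr2* had a log2 difference of -1.02 ± 0.39 (edgeR adjusted p = 0.344) and *Cd14* of -1.25 ± 0.59 (edgeR adjusted p = 0.549). With the mouse as a replicate block both were called, 2 in place of 0 (*Tlr2* log2 -1.03, adjusted p = 0.0473; *Cd14* log2 -1.20, adjusted p = 0.0161, by edgeR), while the count of all genes went from 140 to 284. The dissociation genes were also higher in glioma monocytes than in CCR2low macrophages in these 3 mice, with 9398 against 5003, 14432 against 6914 and 8553 against 6058 CPM in mice 22, 24 and 26, and their part was not tested.

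Between CCR2low and CCR2high GFPneg macrophages 0 of the 10 genes were called by edgeR, with 0 at an unadjusted p under 0.05 and 0 by DESeq2, where 0% of all genes were called. The widest intervals were those of *Tlr9* (log2 -2.93 to 0.49) and *Tlr6* (-1.96 to 1.15), and the narrowest that of *Tlr2* (-0.77 to 0.66). Within mice *Cd14*, *Tlr1*, *Tlr8*, *Tlr9* and *Tlr13* were lower and *Tlr7* higher in CCR2low cells in 4 of 4 mice, with log2 differences for *Tlr7* from 0.31 to 0.71. *Tlr9* lay at 7.42 CPM or less in these cells. How many of all tested genes kept the same sign in all 4 mice was not counted.

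Uptake of tumor GFP was compared within each gate. In glioma monocytes, CCR2high and CCR2low macrophages neither edgeR nor DESeq2 called a gene of the 10, and the unadjusted p was under 0.05 for 0 of them, where edgeR called 0% of all genes in each. *Tlr4* had 72.2, 56.5 and 97.2 CPM in GFPpos and 122, 100.1 and 165 CPM in GFPneg glioma monocytes of mice 22, 24 and 26, lower in 3 of 3 mice (log2 difference -0.77 ± 0.68, edgeR adjusted p = 0.891). *Tlr2* was also lower in GFPpos glioma monocytes in 3 of 3 mice, with 542, 350 and 464 CPM (log2 difference -0.58 ± 0.42, edgeR adjusted p = 0.876). The same sign in 3 of 3 mice was found for *Tlr6*, *Tlr7* and *Tlr8*. Of the 10 genes 1 had a positive log2 fold change there, with a median of -0.52 against 0.07 over all genes. How many of all tested genes kept 1 sign within mice was not counted in any gate. The dissociation genes were lower in GFPpos glioma monocytes in the same 3 mice (6535, 9629 and 6537 CPM, against 9398, 14432 and 8553 CPM in GFPneg cells) and the microglia markers higher (2355, 3733 and 2635 against 1679.5, 2835 and 1752 CPM). The spike-in share was 3.59% and 5.16% in GFPpos glioma monocytes of mice 22 and 24, 0.612% in mouse 26 and 0.319% to 0.742% in GFPneg ones, and the part of these values was not tested. *Tlr3* was higher in GFPpos CCR2low macrophages in 4 of 4 mice, with 63.3, 50.7, 61.8 and 81.6 CPM against 57.3, 46.5, 54.6 and 38.0 CPM (log2 difference 0.39 ± 0.40, edgeR adjusted p = 1). The GFP effect in glioma monocytes against that in macrophages was called for 0 of 10 genes by edgeR and by DESeq2, with 0 at an unadjusted p under 0.05.

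The mouse family also holds *Tlr5*, *Tlr11* and *Tlr12*, which are not in the set. *Tlr12*, a receptor for protozoan profilin, had 1, 0 and 0 counts in Ly6Chigh monocytes and 30.3 to 222 CPM in the GFPneg brain replicates. Its means were 41.2, 140 and 159 CPM in GFPneg glioma monocytes, CCR2high and CCR2low macrophages. The summed microglia markers had medians of 1752, 2541 and 4219 CPM in the same gates, and their part in the *Tlr12* values was not tested. Set against 3 counts per library, a bound for counting error only, *Tlr12* was 30.4-fold higher in GFPneg glioma monocytes, 103-fold in CCR2high and 117-fold in CCR2low macrophages (edgeR adjusted p = 0.00105, 6.47e-05 and 4.78e-05). In Ly6Clow monocytes it had 1 and 2 counts in mice 22 and 24 and 285 counts, or 109.9 CPM, in the library of mouse 23 that stood apart. The edgeR call of higher *Tlr12* in Ly6Clow than in Ly6Chigh monocytes (adjusted p = 0.00431) rested on that library, and without it the adjusted p was 0.602. It was also lost without Ly6Chigh replicate 24 (edgeR adjusted p = 0.0509) and with spike-in scaling (0.241). *Tlr5*, the flagellin receptor, reached at most 9.20 CPM in blood and 35.5 CPM in brain, and *Tlr11* 12.9 and 15.6 CPM.

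**Figure D5:**
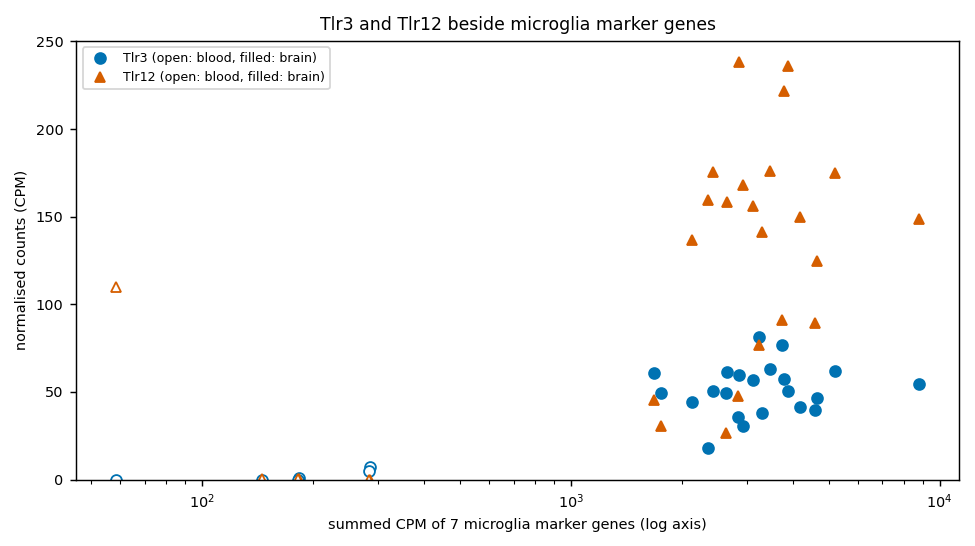
Normalised counts (CPM, linear axis from 0) of *Tlr3* and *Tlr12* against the summed CPM of 7 microglia marker genes (log axis) in the 28 replicates, open for blood and filled for brain. *Tlr3* lies at 18.1 to 81.6 CPM in all brain replicates, and 1 blood replicate, from Ly6Clow monocytes of mouse 23, holds *Tlr12* at 109.9 CPM.

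The proteins that carry, cut and connect the receptors were followed in 49 genes of 6 lists, of which 48 were tested. Against Ly6Chigh monocytes 7 rose and 4 fell in GFPneg glioma monocytes, 8 rose and 7 fell in CCR2high, and 7 rose and 9 fell in CCR2low macrophages. The genes that rose were 14.6%, 16.7% and 14.6% of the 48, close to the 11.1%, 12.7% and 14.1% of all tested genes called higher, and those that fell were 8.33%, 14.6% and 18.8%, where 2.68%, 5.14% and 6.09% of all genes were called lower. With spike-in scaling, an alternative chosen for these lists after seeing the data, none of these calls turned sign, but 0 of 11, 1 of 15 and 2 of 16 were still made by edgeR, namely *Lgmn* in both macrophage comparisons and *Ctsl* in CCR2low macrophages. In blood 4 of the 48 were called, where 5.61% of all genes were, and none of these calls was made under that scaling either. All 4 called proteases, of 5 in the list, rose in each of the 3 comparisons, where 11.1%, 12.7% and 14.1% of all genes were called higher. *Lgmn*, the asparagine endopeptidase that trims endosomal receptors, went from 145 ± 18.4 to 1120.0 ± 418 CPM in glioma monocytes (log2 2.95 ± 0.35, edgeR adjusted p = 1.26e-06), and *Ctsl*, *Ctsb* and *Ctss*, which encode cathepsins, had log2 values of 3.12, 0.79 and 1.16. Of 10 accessory proteins and chaperones 1, 2 and 2 rose and 0, 0 and 1 fell. *Slc15a3*, an endolysosomal peptide transporter, went from 16.5 ± 3.67 to 148 ± 45.1 CPM in glioma monocytes (edgeR adjusted p = 0.000142), and *Hsp90b1*, the chaperone of the receptors, had a log2 value of 0.81 in CCR2high macrophages. Within the blood *Unc93b1*, which brings the endosomal receptors to their compartment, was higher in Ly6Chigh monocytes (1698 ± 312 against 922 ± 397 CPM, edgeR adjusted p = 0.0381), and *Cd36*, a scavenger receptor that helps TLR2, was lower (84.7 ± 67.2 against 634 ± 64.1 CPM, edgeR adjusted p = 0.000639).

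The signalling genes were counted in the same way, beside the 2.68%, 5.14% and 6.09% of all genes called lower in the 3 comparisons and the 11.1%, 12.7% and 14.1% called higher. Of 5 tested adaptors 1, 2 and 3 fell in glioma monocytes, CCR2high and CCR2low macrophages and 0 rose. *Ticam2*, which links TLR4 to TRIF, went from 85.9 ± 16.6 CPM in Ly6Chigh monocytes to 18.8 ± 1.55 CPM in CCR2low macrophages (log2 -2.19 ± 0.43, edgeR adjusted p = 0.000477), and there *Tirap* and *Myd88* had log2 values of -1.94 and -0.99. Of 14 kinases and ubiquitin ligases the same number, 2, fell in each comparison, namely *Irak4* and *Ikbkb*. *Ikbkb*, a kinase that releases NF-kB, went from 382 ± 92.1 to 88.4 ± 16.4 CPM in CCR2low macrophages (log2 -2.11 ± 0.24, edgeR adjusted p = 5.03e-07). *Ikbke* was higher in Ly6Chigh than in Ly6Clow monocytes (46.4 ± 7.61 against 4.78 ± 4.33 CPM, edgeR adjusted p = 0.00188).

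Of 6 transcription factors 1, 1 and 0 rose, where 11.1%, 12.7% and 14.1% of all genes were called higher, and 1, 2 and 2 fell, where 2.68%, 5.14% and 6.09% were called lower. *Irf7*, the interferon factor downstream of TLR7 and TLR9, went from 401 ± 62.5 to 2604 ± 695 CPM in glioma monocytes (log2 2.70 ± 0.36, edgeR adjusted p = 6.99e-06). *Nfkb1* fell in all 3 comparisons (log2 -1.57, -2.29 and -1.66) and *Irf5* in both macrophage ones (log2 -0.87 and -1.31). Of 8 inhibitors *Tnfaip3*, the ubiquitin-editing enzyme A20, rose in all 3, from 32.1 ± 17.8 to 683 ± 331 CPM in glioma monocytes (log2 4.39 ± 0.76, edgeR adjusted p = 0.000183), and *Irak3* fell in the macrophages (log2 -2.50 and -2.61). Beside all tested genes, the list medians in CCR2low macrophages were 1.12 for proteases, -0.18 for accessory proteins, -0.99 for adaptors, -0.70 for kinases, -0.53 for transcription factors and 0.49 for inhibitors, against 0.17 for all genes.

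The genes whose levels followed each receptor most closely were named from 8125 other genes whose mean reached 10 CPM, by Spearman correlation of log2 CPM over the 28 replicates, which share mice and the split into blood and brain. *Cxcl2* (0.96) and *Il1b* (0.94) were the closest to *Cd14*, and *Parp10* (0.92) and *Nos2* (0.91) to *Tlr2*. *Tmem164* (0.90) and *Pcyox1* (0.89) were the closest to *Tlr13*, and *Aplp2* (0.88) and *Atg9a* (0.87) to *Tlr8*. The other first-ranked genes were *Dab2* for *Tlr1* (0.83), *Arrdc3* for *Tlr7* (0.82), *Gp49a* for *Tlr9* (0.78), *Baiap2* for *Tlr4* (0.77), *Med16* for *Tlr6* (0.77) and *Alkbh2* for *Tlr3* (0.76). Among the 10 genes themselves *Tlr2* and *Cd14* were the closest pair (0.93 over 28 replicates and 0.88 over the 22 of brain). Over all 28, *Tlr8* and *Tlr13* followed (0.80). Over the 22 of brain this pair had 0.677, behind *Tlr2* with *Tlr7* (0.703) and *Cd14* with *Tlr13* (0.696).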

How the data were processed

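The authors deposited whole-number read counts per gene for 30 libraries, and these counts are not normalized. Upstream, the authors mapped reads to mm10 with STAR, removed duplicates (Picard 1.8.4 in the submitters' processing notes) and counted with HTSeq in a strict intersection mode on the GRCm38.p3 annotation. The kit was SMARTer Ultra Low Input. A library needed 6000 genes at 5 or more reads, a rule of the study, and 1 library failed it. Members and lists were chosen with earlier results of these data known, and the promoter motifs after the values were seen. Statistics were run with edgeR 4.0.16 under R 4.3.3 (scaling by TMM, filterByExpr, robust quasi-likelihood test, 1 fit over 8 populations, Benjamini-Hochberg over 11566 genes), and were tested on simulated data. DESeq2 1.42.0 was an alternative. SE is the fold change over the root of F. Log2 CPM used a prior count of 2. All 10 members, the rest of the family, and in each list up to 4 called genes with the smallest adjusted p were named. Spike-ins (92) and summary rows were left out of library sizes. Reads carry no molecular identifiers, so limits of 3 counts (95% confidence) cover counting error only. Of the symbols 41743 (92.1%) matched GENCODE vM21, which has the same build. Of the 10 members, 7 had a promoter window. Samples with 1 mouse number come from 1 animal. Their deviations from the population means had a median correlation of 0.136 over 86 pairs, against -0.03 over 256 pairs from different mice. The fit without the mouse was the main one, since the study's methods name no mouse term.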

Additional observations from a re-analysis of the deposited data

Results flagged for a closer look

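In the macrophage gates, mouse 26 stood apart from the other 3 mice, by a gap of over 0.829 of the range (Dixon's 95% limit for 4 values), in 7 of 56 groups tested (13 genes and the surface to endosomal ratio in 4 populations). Chance gives about 1 in 20 for independent groups, and these groups share the same 4 mice. In all 7 it was the high value. *Tlr8* had 69.8 CPM in GFPneg CCR2high macrophages of mouse 26 against 19.5 to 26.5 CPM in the others, 83.8 CPM against 17.3 to 21.7 CPM in GFPpos CCR2high macrophages, and 64.9 CPM against 14.3 to 22.02 CPM in GFPneg CCR2low macrophages. *Tlr13* had 437 CPM against 123 to 175 CPM in GFPpos CCR2high macrophages, and *Tlr6* 44.8 CPM against 7.08 to 12.1 CPM in GFPneg CCR2low macrophages. *Tlr5*, outside the set, had 16.3 CPM against 0 to 2.48 CPM in GFPpos CCR2high and 10.5 CPM against 0.233 to 1.87 CPM in GFPpos CCR2low macrophages. Over all 6 brain populations mouse 26 was the highest in 6 for *Cd14*, *Tlr8* and *Tlr13*, in 5 for *Tlr2* and in 1 for *Tlr3*. The dissociation genes summed to 5874 to 8553 CPM in its brain replicates and to 5833 to 14432 CPM in those of mouse 24, and neutrophil markers to 121 to 479 and 282 to 1797 CPM. Their part was not tested.

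The GFPpos to GFPneg difference of *Tlr8* was below 0 in all 3 mice in glioma monocytes (log2 fold change -1.22) and above 0 in all 4 mice in CCR2low macrophages (0.45). The difference between these 2 gates was not tested by itself.

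The library of Ly6Clow monocytes of mouse 23 that was left out held 271 counts of *Cd14* and 15 of *Tlr13*, above the 3 counts that counting error allows for a value of 0, while the library used held 95 and 306. The library left out held 0 counts of *Tlr2*, *Tlr7*, *Tlr8* and *Tlr12*, where the library used held 425, 1037, 17 and 285. The values of these 4 genes in Ly6Clow monocytes of mouse 23 thus rest on 1 library.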

How the results depend on the processing

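With spike-in scaling 1 gene of the set was called in GFPneg glioma monocytes and 0 in CCR2low macrophages, each against Ly6Chigh monocytes, in place of 3. All-gene counts there were 398, 523 and 591 in the 3 brain comparisons in place of 1596, 2060 and 2340, and 36 between the blood populations in place of 649. The share called higher was then 98.0%, 89.3%, 85.3% and 97.2% in place of 80.6%, 71.2%, 69.9% and 34.98%. This scaling moved the median log2 difference of all genes to 1.69 between the blood populations, and to -1.37 for GFP in glioma monocytes. Pathway lists and class medians under other scalings were added after seeing the data. With the mouse as a replicate block the set had 2 calls in blood, 5 in each macrophage population against blood and 2 in CCR2low macrophages against glioma monocytes (of all genes 922, 2451, 2671 and 284), and the block changed no other call of the 10 genes than those given in the text. The compared populations alone gave 0 in blood, where 0 of all genes were called and *Tlr3* did not pass the filter, and 6 in each macrophage comparison (of all genes 2683 and 2819). Leaving out 1 replicate gave 1 to 6 in blood, the 6 without Ly6Clow replicate 24, and 2 to 4 in the 3 brain comparisons. All-gene counts under that choice ran from 224 to 2444, 1018 to 1319, 1307 to 1821 and 1541 to 2133. Between brain populations, all-gene counts of 21 and 140 went to 96 and 284 with the block, 101 and 293 with the compared populations alone, 102 and 274 with DESeq2, 0 and 1 with the spike-ins, and 6 to 21 and 47 to 110 without 1 replicate. CCR2low against CCR2high macrophages had 3 genes with the block and 8 with DESeq2 in place of 0. The GFP comparisons had 20, 1 and 3 genes with DESeq2, and the GFP effect between gates 2, in place of 0, and up to 1 in glioma monocytes without 1 replicate. In blood, DESeq2 called 1388 genes, no low-count filter gave 397, and the first library alone of GFPpos glioma monocytes of mouse 22 gave 400. With *Cd14* added to the surface sum the log2 ratios were -0.30 and -0.63 in Ly6Chigh and Ly6Clow monocytes, 3.36 and 3.49 in GFPneg and GFPpos glioma monocytes, 2.94 and 2.89 in CCR2high and 2.61 and 2.50 in CCR2low macrophages. Coding length and leaving out 1 replicate moved the ratio by less than 1 SD and turned no sign. No fold change of the set that was called turned sign under any alternative. Counts were lowest, and depth so limits precision most, for *Tlr9*, *Tlr5* and *Tlr11*, and for *Tlr3* in blood. The causes of these changes were not tested.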

Other observations

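The 2 libraries of GFPpos glioma monocytes of mouse 22 differed in the receptors they detected. The first had 0 counts of *Tlr1*, *Tlr3*, *Tlr4*, *Tlr6* and *Tlr8*, where the second had 214, 89, 354, 106 and 45 counts. *Tlr2* had 481 and 2175 counts, *Tlr7* 98 and 310, *Tlr13* 173 and 628, and *Cd14* 1392 and 4868. On the scale of each library these were 286 and 543 CPM for *Tlr2* and 828 and 1214 CPM for *Cd14*.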
